A study of Mus musculus with 22 samples.

Results

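The promoters whose H3K4me3 peaks differed between G1ER cells treated with β-estradiol for 24 h and untreated cells (0 h) were described gene by gene. The 4 H3K4me3 peak lists of these time points were taken, with 2 replicates each, out of 22 lists in the series. Of 21853 protein-coding genes, 10001 had a peak within 2 kb of their transcription start site (TSS) in at least 1 of the 4 lists, and 9617 had one in all 4. The 4 lists merged into 15455 regions, of which 8492 held a TSS and are called domains here.

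Both groups were the same cell line. G1ER (labelled G1E-ER4) is a mouse erythroid progenitor line, a subclone of the Gata1-null line G1E, so all samples come from 1 clone. It expresses GATA1 fused to an estrogen receptor domain, and was grown with erythropoietin and stem cell factor in both groups. β-estradiol was the only agent that differed, and it lets the fusion protein act, upon which the cells mature along the erythroid path. The replicates are described in the study as independent experiments, though nothing says that they came from separate cultures, and p-values measure the spread between these samples. Lists at 2, 6 and 12 h, also 2 each, entered the fits to estimate that spread. The Gata1 promoter had no peak in any of the 10 H3K4me3 lists. Nor did that of Tal1, another erythroid marker, so a missing peak here does not show the genotype or an absent mark.

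H3K4me3 is a histone mark placed at the start of active genes, mostly by the SET1 and MLL enzyme complexes, and its width around a start site varies from gene to gene. GATA1 is the zinc finger factor that drives red cell genes and shuts down genes of stem, mast and other myeloid cells. Its partners include FOG1 (encoded by Zfpm1) and a complex of TAL1, LMO2 and LDB1.

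Each promoter was measured in 2 ways, both in base pairs (bp) covered by peaks. For each gene, the covered length was counted in a window of 2 kb either side of 1 TSS. For each domain, the covered length was counted over the whole merged region. Differences are given as 24 h minus 0 h on the log2(bp + 200) scale, from limma, with Benjamini-Hochberg adjusted p over all promoters or domains, and values are mean ± SD (n = 2). A test on 2 lists against 2 alone cannot go below an exact permutation p of 0.333. The lists held no read counts, so depth was unknown, and a longer peak is not the same as more signal.

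In all, 36 domains were longer and 28 were shorter at 24 h among 8476 tested, which is 0.425% and 0.33% of them. In the window, 7 promoters were longer and 20 shorter among 9982 tested (0.0701% and 0.2%). Without adjustment, 926 domains and 766 promoters had p below 0.05. A peak was gained in both 24 h lists from none at 0 h at 20 promoters and lost at 54, which is 0.2% and 0.54% of the 10001. The median difference over all domains was -0.00952, so the typical domain hardly moved in length. Of the 64 domain calls, 21 held when each of the 4 lists was left out in turn.

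**Figure D1:**
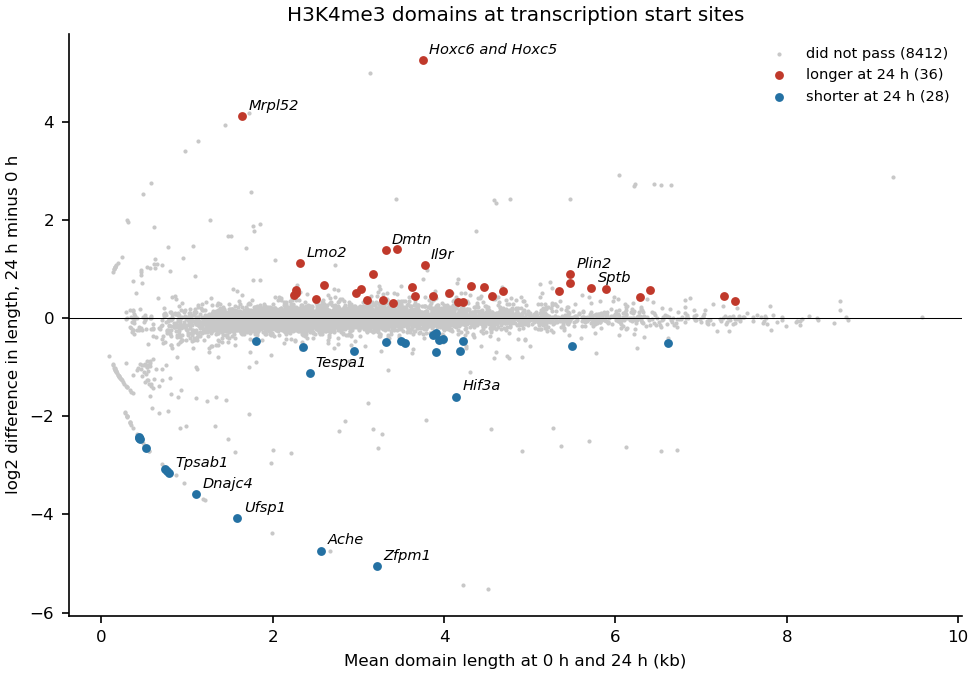
Each point is an H3K4me3 domain that holds a TSS, with its mean length (kb) over the 0 h and 24 h means on the horizontal axis and its log2 difference on the vertical axis. The 36 longer (red) and 28 shorter (blue) domains lie around a grey mass near 0, and domains that lost every peak form the lower left arc.

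Sequences at 6 changed start sites are shown as examples because GATA1 binds GATA sequences, and do not show how common these are. They are the 250 bases before the RefSeq start (GRCm38.p6), 5′ to 3′ on the gene's strand, with AGATAA or TGATAA, searched on both strands, in capitals. Pdia2 (chr17:26199088-26199337, minus strand), Il9r (chr11:32200280-32200529, minus strand) and Pfkm (chr15:98108221-98108470, plus strand) lie at domains that lengthened and hold 1, 2 and 2 matches. Sptb (chr12:76710548-76710797, minus strand) lengthened and holds 0 matches and 18 CG pairs. Ceacam3 (chr7:17149969-17150218, plus strand) and Bcl2l15 (chr3:103832446-103832695, plus strand) lost their peaks and hold 2 matches each, with 2 and 0 CG pairs. In genome position, the RefSeq start minus the annotated start used for the lengths was 57 at Il9r, 5 at Pfkm, -63 at Ceacam3 and 95 at Bcl2l15. Both Bcl2l15 matches therefore lie downstream of its annotated start.
Pdia2: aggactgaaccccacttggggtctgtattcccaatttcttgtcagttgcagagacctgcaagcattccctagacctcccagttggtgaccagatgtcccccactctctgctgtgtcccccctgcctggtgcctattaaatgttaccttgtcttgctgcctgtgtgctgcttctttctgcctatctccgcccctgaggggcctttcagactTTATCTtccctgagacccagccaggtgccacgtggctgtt
Il9r: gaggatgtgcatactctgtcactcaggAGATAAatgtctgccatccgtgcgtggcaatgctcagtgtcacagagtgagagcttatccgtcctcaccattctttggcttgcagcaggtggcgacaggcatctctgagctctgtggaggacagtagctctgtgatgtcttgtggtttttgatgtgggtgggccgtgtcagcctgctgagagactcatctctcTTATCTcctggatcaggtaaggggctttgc
Pfkm: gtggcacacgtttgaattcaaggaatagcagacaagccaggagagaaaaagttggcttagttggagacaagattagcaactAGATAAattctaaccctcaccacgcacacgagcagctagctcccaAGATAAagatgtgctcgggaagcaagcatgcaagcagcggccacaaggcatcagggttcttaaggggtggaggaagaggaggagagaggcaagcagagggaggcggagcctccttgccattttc
Sptb: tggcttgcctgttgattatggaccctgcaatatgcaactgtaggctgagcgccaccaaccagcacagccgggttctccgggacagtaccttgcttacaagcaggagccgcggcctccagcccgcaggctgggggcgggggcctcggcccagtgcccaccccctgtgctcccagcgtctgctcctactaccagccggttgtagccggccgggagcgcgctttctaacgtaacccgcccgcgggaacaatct
Ceacam3: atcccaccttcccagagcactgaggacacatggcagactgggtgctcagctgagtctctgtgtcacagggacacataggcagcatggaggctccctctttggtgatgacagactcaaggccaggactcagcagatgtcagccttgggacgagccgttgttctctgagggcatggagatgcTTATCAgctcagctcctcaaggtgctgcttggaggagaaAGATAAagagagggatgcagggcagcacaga
Bcl2l15: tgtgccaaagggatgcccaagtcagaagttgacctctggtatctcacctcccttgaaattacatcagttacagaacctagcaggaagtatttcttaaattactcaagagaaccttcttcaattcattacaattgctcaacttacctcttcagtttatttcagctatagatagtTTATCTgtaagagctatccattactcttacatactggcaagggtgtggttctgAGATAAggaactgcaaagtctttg

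Over the 300 bases from 250 before to 50 after the annotated start, 8 of the 36 genes in lengthened domains that had a peak in all 4 lists held such a match, which is 22.2%. The share was 9.48% of the 9567 genes in tested domains and 16.2% of all 21848 promoters read. For the 18 genes in shortened domains of the same kind it was 2 (11.1%), and for the 54 lost promoters 7 (13%). The lost promoters were poor in CpG, with a median observed-over-expected ratio of 0.423, against 0.799 for all genes in tested domains and 0.651 for the lengthened ones. A match of letters is not a binding site.

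In the red cell skeleton, Dmtn and Sptb lengthened. Dmtn encodes dematin, which bundles actin and ties it to the red cell membrane. Its domain (chr14:70622716-70627643, minus strand) covered 1616 and 1878 bp at 0 h and 4914 and 4870 bp at 24 h. The time points in between gave 1435 to 2957 bp, so no earlier list came near the 24 h values. The difference was 1.39 ± 0.16 (SE) on the log2 scale, with an adjusted p of 0.00762. Without replicate 1 at 0 h the adjusted p was 0.0705. The region lies wholly within the annotated gene, with 708 bp in exons and 4220 bp in introns.

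Sptb encodes β-spectrin, a backbone protein of the same skeleton. Its domain (chr12:76704506-76711660) went from 4351 and 4615 bp at 0 h, through 5693 and 5833 at 12 h, to 7127 and 6783 at 24 h. The 24 h lists were above every other list. The difference was 0.61 ± 0.06, with an adjusted p of 0.0026 and of at most 0.0215 when any of the 4 lists was left out. With only peaks that scored above the median of all peaks, 860, it was -4.55. Both 24 h peaks scored under this limit, at 479 and 609, and so counted as 0 bp. Most of the region, 5429 bp, is intron, 613 bp is exon and 1113 bp lies before the gene.

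In the whole list of 27 red cell membrane and skeleton genes, 22 had a domain. In 13 of these both 24 h lists were above both 0 h lists and in 1 both were below, against 18.1% and 22.8% of all tested domains. The median difference was 0.124, and only Dmtn and Sptb passed the test. Abcb10 was named after its values were seen, as were Tmem14c, Alas2, Ms4a2, Rgs13, Gpr65, Rpia, Fam78a, Tuba4a, Fcer1a, Tpsb2, Vim, Lin28b, Piwil4, Plekhg3, Mlec, Hif3a, Mid1ip1, Sgsm3, Nme4 and Noct.

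Lmo2, the adaptor that bridges TAL1 and GATA1, lengthened step by step. Its domain (chr2:103957257-103960917) went from 1450 and 1308 bp at 0 h, through 2125 and 2196 at 6 h and then 2685 and 2772 at 12 h, to 3602 and 2935 at 24 h. The 24 h lists were above all earlier ones. The difference was 1.13 ± 0.13, with an adjusted p of 0.0051 and of 0.0385 at most with a list left out. The growth lay mainly in the gene: the part downstream of the TSS went from 921 ± 24 to 2560 ± 513 bp and the upstream part from 458 to 708 bp.

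No heme synthesis gene passed. All 19 listed genes were marked, and the median difference was 0.19. Of 19 domains, 11 (57.9%) were longer in both 24 h lists and 2 (10.5%) shorter in both, against 18.1% and 22.8% of all tested domains. Without adjustment 6 of the 19 had p below 0.05, all longer, against 926 of all 8476 domains in either direction. Abcb10, a mitochondrial transporter that stabilizes the iron importer mitoferrin, covered 3763 and 3960 bp at 0 h and 6259 and 6505 bp at 24 h (adjusted p = 0.0682). Tmem14c, a mitochondrial membrane protein needed for porphyrin import, had 3336 and 4972 bp at 0 h and 6300 and 6453 bp at 24 h (adjusted p = 0.152). Alas2, the erythroid enzyme that starts the pathway, had 752 and 892 bp at 0 h and 2466 and 2627 bp at 24 h. The 2 h lists had 1012 and 0 bp there and the 6 h lists 2059 and 812 bp, and the adjusted p was 0.518. Alad and Blvrb, the members with the longest domains at 0 h, had differences of 0.21 and 0.26 (adjusted p of 0.446 and 0.676).

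Of 7 globin and chaperone genes, 4 had a domain. Of these 4, 3 were longer in both 24 h lists, against 18.1% of all tested domains, and the median difference was 0.307. Hbb-bs, adult β-globin, covered 2119 and 2170 bp at 0 h and 2717 and 2968 bp at 24 h, with 1744 and 1779 bp at 6 h (adjusted p = 0.0676). Hba-a1 and Hba-a2 are near-identical copies, so reads kept only when they map uniquely leave both uncertain. Hba-x, Hbb-bh1 and Hbb-y, the embryonic globins, had no peak in any list.

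**Figure D2:**
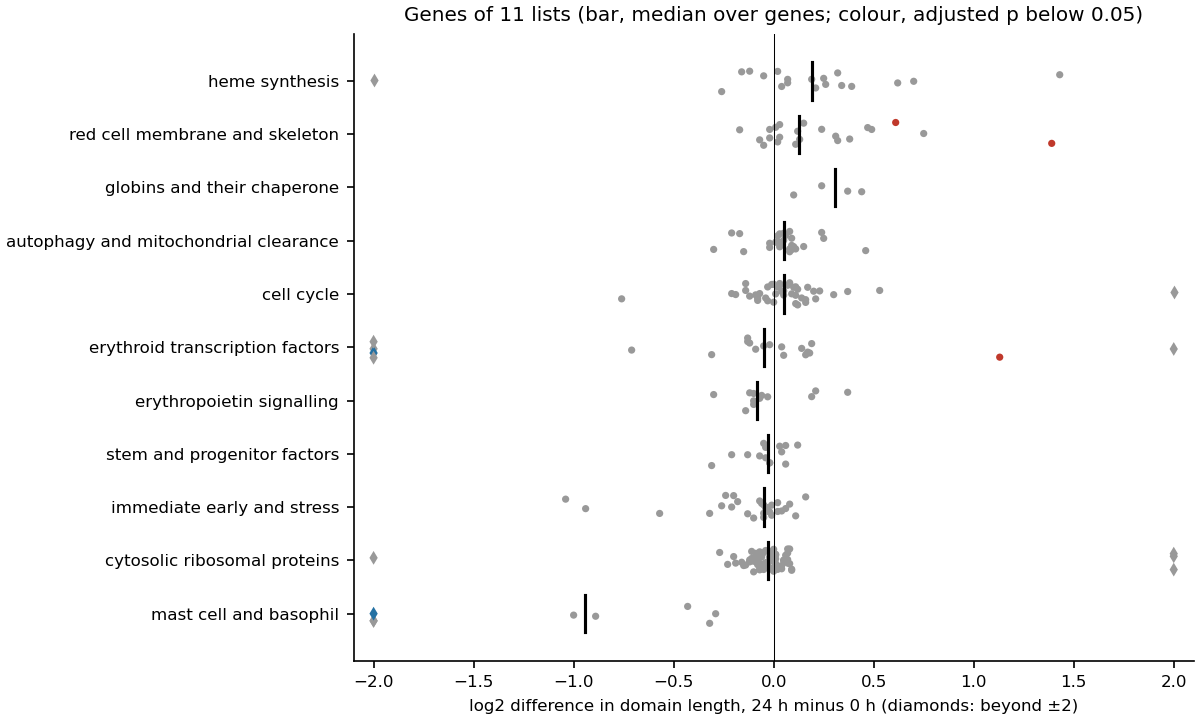
Each point is a gene of a list, placed by the log2 difference of its H3K4me3 domain at 24 h against 0 h, with a bar at the median over genes, coloured points for adjusted p below 0.05 and diamonds for genes beyond ±2. Heme, membrane and globin genes sit mostly to the right of 0 and mast cell genes to the left, and the coloured genes among these 11 lists are Dmtn, Sptb, Lmo2, Zfpm1 and Tpsab1.

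Mast cell genes lay on the short side at 24 h. Tpsab1, which encodes a tryptase stored in mast cell granules, covered 1401 and 1771 bp of its domain (chr17:25343856-25345705) at 0 h, 1836 and 1439 bp at 12 h, and 0 in both lists at 24 h. All 8 earlier lists held the peak. The log2 difference depends on the pseudocount and is no bound, and the adjusted p comes from the same log2 values. That adjusted p was 3.31e-05, and 0.000388 at most with a list left out. The gene has close relatives in the tryptase cluster, and Tpsb2 had no peak in any list. Cpa3, mast cell carboxypeptidase, had 4101 and 6570 bp at 0 h, 2013 and 0 at 12 h, and 0 in both lists at 24 h, and its adjusted p was 0.0614.

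Of 25 mast cell and basophil genes, 8 had a domain. Both 24 h lists were below both 0 h lists in 5 (62.5%) and above in 0, against 22.8% and 18.1% of all tested domains. The median difference was -0.942. Without adjustment 5 had p below 0.05, all shorter, against 926 of all 8476 domains in either direction. Ms4a2, the β chain of the IgE receptor, had 2086 and 3438 bp at 0 h and 0 and 739 bp at 24 h (adjusted p = 0.0914). Rgs13, a regulator of G protein signalling in mast cells, had 2139 and 2585 bp at 0 h and 912 and 1270 bp at 24 h (adjusted p = 0.346). The 5 mast cell markers (Cpa3, Ms4a2, Fcer1a, Hdc and Tpsb2) summed to between 4.32 and 5.69 kb of window length at 0 h and between 0.547 and 0.739 kb at 24 h. Fcer1a and Tpsb2 were at 0 throughout. Fewer cells with the mark and less of the mark per cell cannot be told apart in these bulk samples.

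Of the 10 erythroid markers, 8 had a peak in both 0 h lists and 7 in both 24 h lists. The markers summed to between 19.9 and 20.9 kb at 0 h and between 19.9 and 23.3 kb at 24 h. Gata1 and Tal1 were at 0 in all 10 lists. The 5 myeloid, 5 lymphoid and 7 non-blood markers had no peak in any of the 10 lists. Of the 5 megakaryocyte markers, Pf4 and Vwf had none, and the sum lay between 1.74 and 2.34 kb in the 4 lists. Of 30 genes of other blood lineages, 28 had no peak in any of 10 lists.

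Tespa1, a signalling protein of lymphoid cells and mast cells, was the promoter among those captured by the study that shortened past the threshold. Its domain (chr10:130322340-130325816) went from 3477 and 3319 bp at 0 h, through 3401 and 2597 at 12 h, to 1386 and 1543 at 24 h. The 24 h values lay below all 8 earlier ones. The difference was -1.11 ± 0.11, with an adjusted p of 0.00249, and 0.0259 at most with a list left out. Il9r, the receptor of interleukin 9, went the other way, with 2397 and 2303 bp at 0 h and 5309 and 5092 bp at 24 h (chr11:32195556-32200903). Its 2, 6 and 12 h values stayed between 2472 and 3193 bp. The difference was 1.08 ± 0.10, with an adjusted p of 0.00186, and 0.0168 at most with a list left out.

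Of the 41 matched promoters captured in the study, 36 had a domain. Both 24 h lists were above both 0 h lists in 18 (50%) and below in 10 (27.8%), against 18.1% and 22.8% of all tested domains. At an unadjusted p below 0.05, 12 were longer and 7 shorter, against 926 of all 8476 domains in either direction. The study picked them because their RNA rose or fell most as these cells differentiated, so their directions are not independent evidence. Dmtn and Il9r passed as longer and Tespa1 as shorter. Slc38a5, a glutamine transporter, had no peak at 0 h and 1296 and 1021 bp at 24 h, with 585 and 571 bp in 1 list each at 2 h and 6 h (adjusted p = 0.319). Gpr65, an acid-sensing receptor, had 3976 and 3028 bp at 0 h and 928 and 0 bp at 24 h (adjusted p = 0.0939). Gata2, Il1rl1 and Srgn had no peak in any list. The study describes high GATA2 expression in undifferentiated cells, so a missing peak there does not show that the mark was absent.

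**Figure D3:**
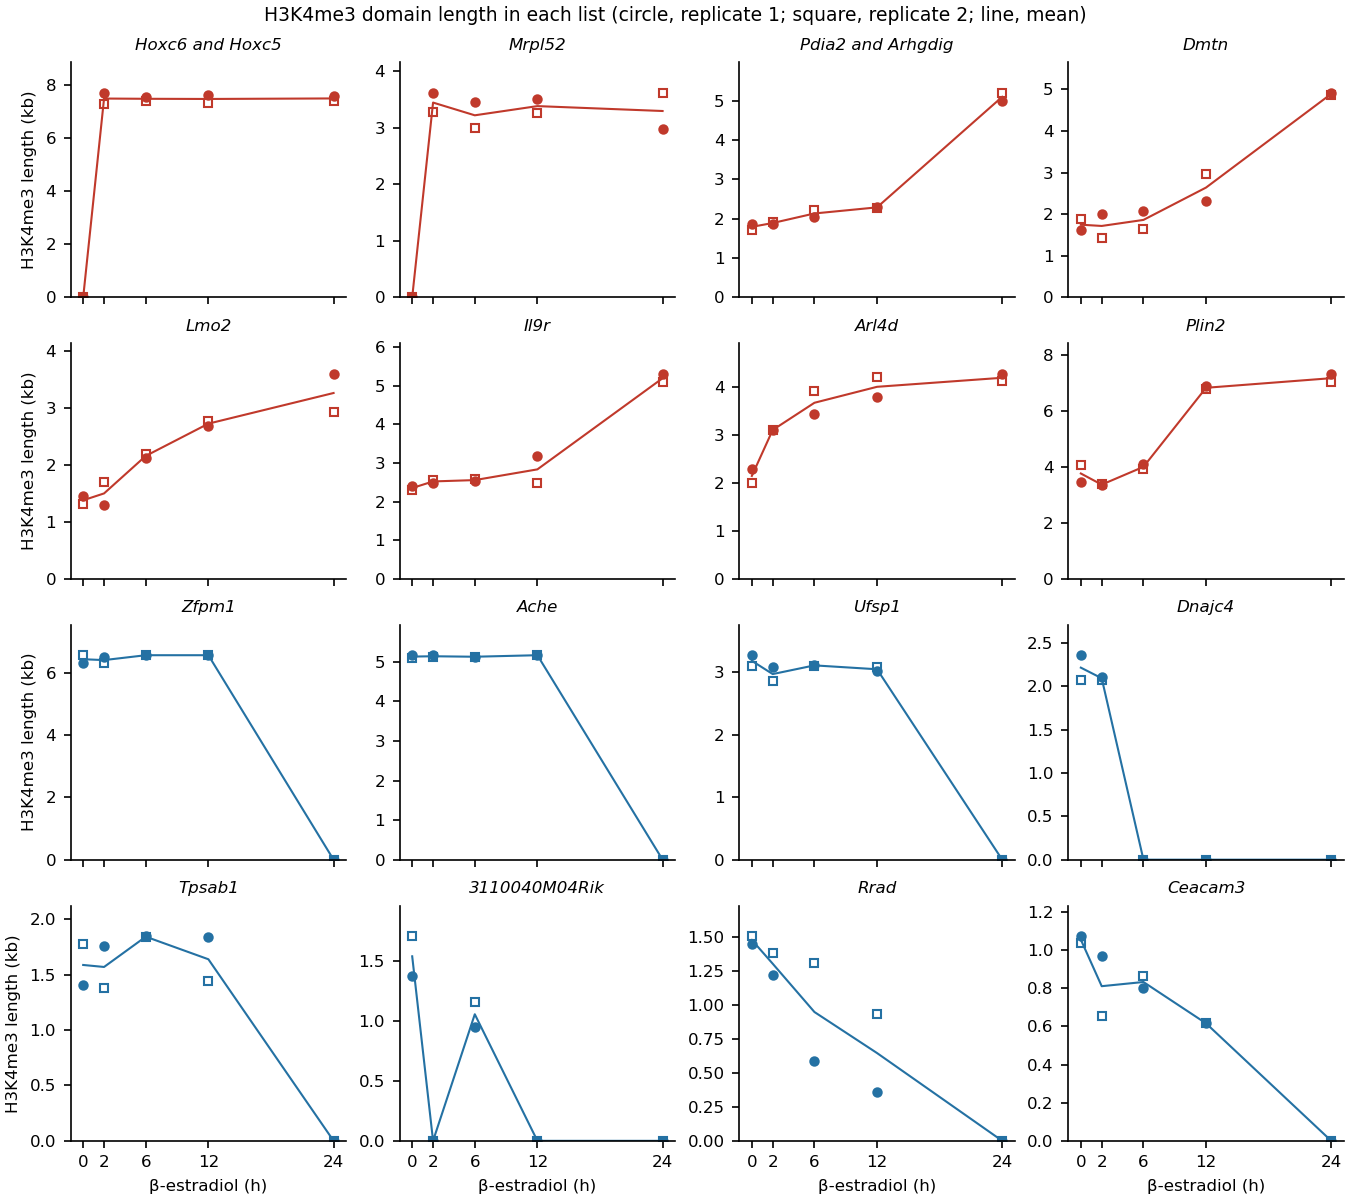
H3K4me3 domain length (kb) against hours of β-estradiol for the 8 domains with the largest rise (red) and the 8 with the largest fall (blue), with circles and squares for the replicates and a line through their mean. Lmo2, Arl4d and Plin2 lengthened before 24 h, Dmtn, Il9r and Pdia2 mainly at 24 h, and Zfpm1, Ache, Ufsp1 and Tpsab1 kept their length up to 12 h and had no peak at 24 h.

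Among genes of lipid and energy metabolism, Plin2, Pfkm and Rpia lengthened. Plin2, the coat protein of lipid droplets, went from 3447 and 4084 bp at 0 h, through 4088 and 3919 at 6 h and then 6894 and 6780 at 12 h, to 7329 and 7034 at 24 h (chr4:86663672-86671000). The jump fell between 6 and 12 h in both replicates. The difference was 0.90 ± 0.08, with an adjusted p of 0.00142, and 0.00721 at most with a list left out. Pfkm, the muscle-type phosphofructokinase that red cells also use, had 1845 and 1724 bp at 0 h and 2647 and 2867 bp at 24 h. Its adjusted p was 0.0202, and it passed in 1 of the 4 fits that each left out a list (highest adjusted p of 0.114, without replicate 2 at 24 h). Rpia, ribose 5-phosphate isomerase of the pentose phosphate path, had 4263 and 4278 bp at 0 h and 6266 and 6538 bp at 24 h (adjusted p = 0.0101, passing in 1 of those 4 fits). In their lists, 7 of 18 lipid and cholesterol domains (38.9%) and 7 of 29 glycolysis and antioxidant domains (24.1%) were longer in both 24 h lists. In the same order, 4 (22.2%) and 5 (17.2%) were shorter in both. Over all tested domains the shares were 18.1% longer and 22.8% shorter. With only higher-scoring peaks the differences of Plin2, Pfkm and Rpia were -4.30, -3.31 and -4.48.

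Arl4d, a small GTPase of the ARF family, rose early, from 2296 and 1996 bp at 0 h to 3107 and 3108 bp at 2 h and 4277 and 4122 bp at 24 h. The difference was 0.91 ± 0.08 (adjusted p = 0.0021, and 0.0132 at most with a list left out). Fam78a, of unknown function, went from 5073 and 5154 bp to 7681 and 7700 bp (adjusted p = 0.00186). Ranbp10, a scaffold that binds tubulin and shares its domain with Tsnaxip1, went from 3144 and 3434 bp to 5359 and 5313 bp (adjusted p = 0.0101, and 0.0778 without replicate 1 at 0 h). Tuba4a, an α-tubulin, went from 3441 and 3430 bp to 5391 and 5613 bp (adjusted p = 0.0114, passing in 1 of the 4 leave-one-out fits). The domain of Pdia2, a protein disulfide isomerase, and Arhgdig, a GDP dissociation inhibitor, had 1875 and 1712 bp at 0 h and 5000 and 5198 bp at 24 h. Its difference was 1.41 ± 0.06 (adjusted p = 1.18e-05). All of the 0 h length lay upstream of the Pdia2 start, and at 24 h 2002 ± 70 bp lay downstream of it. With only higher-scoring peaks the differences of Fam78a and Ranbp10 were -4.73 and -4.12.

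The lengthened domains shared the side of the start site on which they grew. Of 32 lengthened domains with 1 TSS and a peak in all 4 lists, the downstream part grew in 32 and the upstream part in 24. The change was larger downstream than upstream in 31 of 32 (96.9%), with median changes of 1474 bp downstream and 48.2 bp upstream. Among all 1286 such domains that were longer in both 24 h lists, it was larger downstream in 76.9%, and among all 7226 tested, in 60.5%. In annotation, the 33 lengthened domains with 1 TSS had medians of 2902 bp of intron, 613 bp of exon and 709 bp outside the gene. Of 16 shortened domains of the same kind, 12 changed more downstream, with medians of -781 bp downstream and -308 bp upstream. Upstream changes were the larger at Hif3a (-4228 bp), Mlec (-2129 bp) and Mid1ip1 (-1899 bp), among others.

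Length and peak score did not move together. The formula of the deposited score is not stated, and it is given here as a percentile among that list's peaks. Of the 34 lengthened domains with a peak in all 4 lists, 28 had a lower score percentile in both 24 h lists than in both 0 h lists and 2 had a higher one. Those 2 were Dmtn, from 22.7 and 19.7 to 30.6 and 31.8, and Lmo2, from 19.5 and 15.0 to 30.7 and 34.0. Sptb went from 80.0 and 76.8 to 35.6 and 40.7 and Plin2 from 59.4 and 52.1 to 20.1 and 24.3. Over all domains that were longer in both 24 h lists, 70.3% had a lower and 3.53% a higher percentile, against 38.2% and 9.62% of all tested domains. Of the 17 shortened domains with a peak in all 4 lists, 12 had a higher and 5 a lower percentile. The 5 were Tespa1 (31.5 and 39.5 at 0 h, 13.5 and 2.48 at 24 h), Vim, Lin28b, Piwil4 and Plekhg3. All 34 lengthened domains held 1 peak in each of the 4 lists, so none lengthened by a gap between peaks closing. With only those higher-scoring peaks, 32 of the 64 called domains could be fitted, of which 10 kept the call, 3 no longer passed and 19 turned round, Sptb, Plin2 and Pfkm among them.

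**Figure D4:**
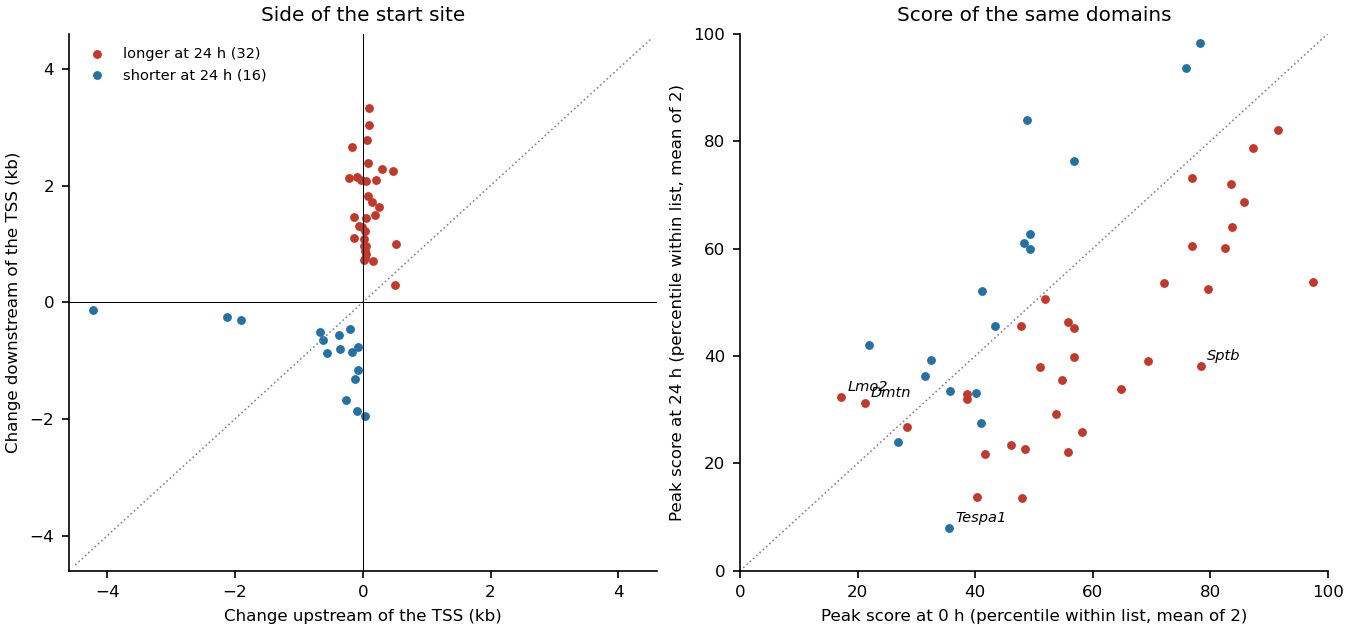
Left, change in covered length downstream against upstream of the TSS (kb) for 32 lengthened (red) and 16 shortened (blue) domains with 1 TSS, and right, peak score percentile at 24 h against 0 h (mean of 2 lists) for 34 and 17 domains, with dotted lines of equality. The lengthened domains rise along the downstream axis, and most of them lie below the line in score, with Dmtn and Lmo2 above it.

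Sgsm3, Nme4, Ranbp10 and Noct were the lengthened domains at which H3K27ac, a mark of active promoters and enhancers read from separate libraries, also changed in covered length (Noct turned to -1.85 in H3K4me3 with only higher-scoring peaks). In the H3K27ac fit over 9583 promoters, 84 were longer (0.877%) and 64 shorter (0.668%) at 24 h. Sgsm3, a Rab GTPase regulator, covered 1433 and 1286 bp at 0 h and 2458 and 2461 bp at 24 h (adjusted p = 0.00482), and Nme4, a mitochondrial nucleoside diphosphate kinase, 1817 and 1770 bp and then 2607 and 3033 bp (adjusted p = 0.0481). In H3K4me3 the Sgsm3 domain went from 1759 and 1896 bp to 2542 and 2883 bp (adjusted p = 0.0279, and 0.16 without replicate 1 at 0 h), and the Nme4 domain from 1766 and 1927 bp to 2515 and 2767 bp (adjusted p = 0.0413, passing in 0 of the 4 leave-one-out fits). The H3K4me3 call of Noct (adjusted p = 0.0238) held in 1 of the 4 leave-one-out fits. Ranbp10 went the opposite way, from 2672 and 2772 bp of H3K27ac to 0 in both 24 h lists (adjusted p = 0.000435), and Noct, which encodes the circadian protein nocturnin, from 2853 and 2532 bp to 0 (adjusted p = 0.000491). A peak missing from a list does not show that the mark was absent there. Of 30 tested genes in lengthened domains, H3K27ac was longer in both 24 h lists in 16 and shorter in both in 5, and of 17 in shortened domains it was longer in 1 and shorter in 8. Over all promoters of that fit the shares were 26% and 14.4%. A CTCF peak lay at 14 of the 36 genes in lengthened domains at 0 h and at 14 at 24 h (38.9% each), though not at all the same genes. Of all genes in tested domains, 34.7% had one at 0 h and 44.6% at 24 h.

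The largest differences on the log2 scale were peaks present at one time and absent at the other. Zfpm1, which encodes the GATA1 cofactor FOG1, had a domain (chr8:122280711-122287284) of 6316 and 6574 bp at 0 h, between 6309 and 6574 bp in all lists from 2 to 12 h, and 0 bp in both lists at 24 h. The nearest other peak in the 24 h lists was 40.3 to 61.3 kb away from its start. No H3K27ac peak lay at its promoter in the 4 H3K27ac lists of the same times. Ache, acetylcholinesterase, which red cells also carry on their surface, covered 5168 and 5099 bp at 0 h and 0 at 24 h, and its neighbour Ufsp1, a protease of the UFM1 pathway, 3268 and 3089 bp and then 0. In these 3 domains all 8 earlier lists held the peak, and the adjusted p was at most 4.36e-09. Both 24 h values were 0 bp, so this p does not measure how often such a peak is missing from a list. Ache (chr5:137286989-137292156) and Ufsp1 (chr5:137292729-137295996) lie side by side and were lost in the same lists, so they may not be separate losses. Ache and Ufsp1 also had no H3K27ac peak in the lists of 0 h and 24 h.

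Hoxc6 and Hoxc5, which encode homeodomain factors of body patterning, showed the reverse. Their shared domain (chr15:103009293-103017007) covered 0 bp in both 0 h lists, 7715 and 7291 bp at 2 h, and 7589 and 7425 at 24 h. All 8 later lists held it, so the 0 h lists stood alone (adjusted p = 7.32e-11). Mrpl52, a protein of the large subunit of the mitochondrial ribosome, likewise had none at 0 h, then 3613 and 3272 bp at 2 h and, at the end, 2974 and 3613 bp (adjusted p = 1.24e-07). Another peak lay 2.4 to 2.65 kb from the Mrpl52 start in the 0 h lists. Neither place had an H3K27ac peak in the 4 lists. At both places the 0 h values were 0 bp, so their p-values share the limit given for Zfpm1. Of 39 Hox genes, 29 had no peak in any of 10 lists, and Hoxc11 was lost, from 207 and 84 bp of its window to 0.

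Most of the gained and lost peaks had low deposited scores. The 54 lost promoters had a median score percentile of 11.1 in the 0 h lists and the 20 gained ones of 16.4 in the 24 h lists, against 69.8 for promoters in all 4 lists. Zfpm1, Ache and Ufsp1 were higher than most of the lost ones, at 38.6 and 38.0, 35.6 and 41.0, and 41.0 and 43.4 in the 0 h lists. H3K27ac was present in at least 1 of 4 lists at 27 of the 54 lost and 9 of the 20 gained, against 95.8% of promoters in all 4. Of the lost promoters, 42 averaged under 2 kb of window length at 0 h and 12 had 2 kb or more. Of the gained, 12 and 8 did so at 24 h. Only 11 of the 54 lost promoters had the peak in all 8 earlier lists, and 3 of the 20 gained had it in all 8 later ones, which were Hoxc5, Hoxc6 and Mrpl52.

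Peaks also had an upper limit of length. The longest peak was between 8843 and 9200 bp in each of the 10 H3K4me3 lists. In replicate 1 at 0 h the median score was 1367 for peaks of 2 to 3 kb, 312 for 7 to 8 kb and 109 for those of 8 kb or more, of which 100% were under a score of 300. Replicate 1 at 24 h had 1209, 260 and 98.6. The part of peak length and score in the gains and losses at long domains such as Zfpm1 and Hoxc6 was not tested. Nor was it at neighbouring domains such as Ache and Ufsp1. Of the 64 called domains, 50 were shorter than 6 kb. In the 10 H3K27ac lists the longest peak was between 8769 and 8973 bp, and its part in H3K27ac losses was not tested.

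**Figure D5:**
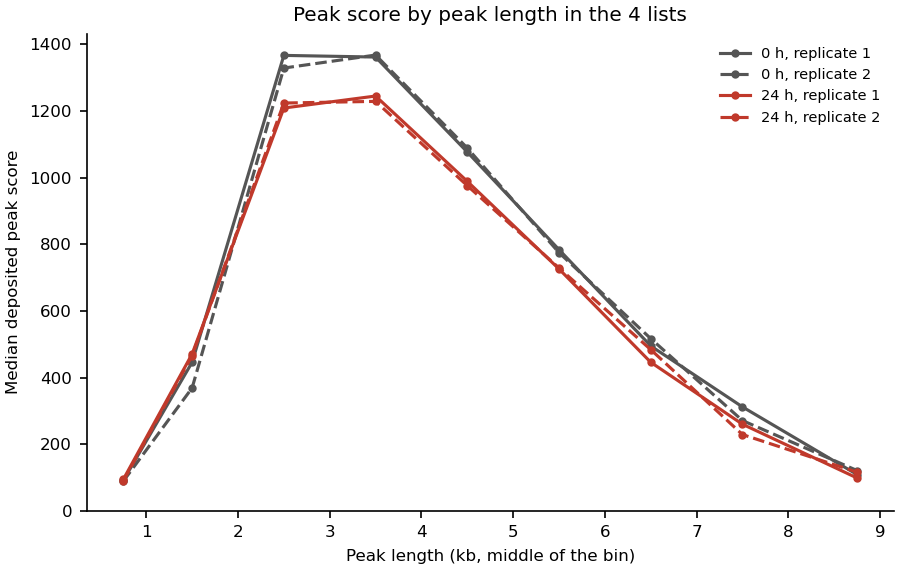
Median deposited peak score (vertical axis) against peak length (kb, middle of each length bin) in the 2 lists at 0 h (grey) and the 2 at 24 h (red), solid for replicate 1 and dashed for replicate 2. All 4 lists rise to a plateau at 2 to 4 kb and fall towards the longest peaks, which have median scores of 98.6 to 121.

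Several of the other long gains and losses were not steady over time. Rpl7a, a ribosomal protein, and its neighbours Med22, Surf1 and Surf2 had no peak at 0 h and 3263 to 4001 bp of window cover at 24 h, but replicate 1 also had none at 2 h and 12 h (adjusted p = 0.588 for Rpl7a). Cnppd1 and Retreg2 share a region with 4001 bp of window cover at 0 h and 0 at 24 h, where replicate 2 at 2 h was the only other list with a peak (adjusted p = 0.39). Rpl23a had 3055 and 2847 bp at 0 h, 3037 and 0 at 12 h and 0 in both at 24 h (adjusted p = 0.39), and Tlcd1 and Nek8 beside it were lost too. Gmpr, a GMP reductase, had 2668 and 2687 bp at 0 h and 0 at 24 h, with 0 in replicate 1 at 6 h and 12 h. Padi3, a peptidylarginine deiminase, was gained with 2125 and 2099 bp (adjusted p = 0.204), and Zbtb12 with 1973 and 1921 bp (adjusted p = 0.423), where a peak at 0 h lay 2.13 to 2.4 kb from the start.

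Among smaller peaks that passed in the window, Fkbp5, a co-chaperone of steroid receptors, went from 1166 and 1459 bp at 0 h, through 1091 and 1059 at 12 h, to 0 at 24 h. Its adjusted p was 0.00125. The H3K27ac there was 1620 and 1688 bp at 0 h and 0 in both lists at 24 h, which did not pass (adjusted p = 0.142). Ceacam3, an adhesion molecule, went from 1073 and 1038 bp at 0 h, through 617 and 616 at 12 h, to 0 at 24 h (adjusted p = 0.0013), yet kept H3K27ac of 2759 and 1496 bp at 24 h. Bcl2l15, of the Bcl-2 family, had 793 and 1026 bp at 0 h and none from 12 h on (adjusted p = 0.00458). Gpr160, a receptor with 884 and 859 bp at 0 h, was also gone from 12 h on (adjusted p = 0.0039). Mtus1, which binds microtubules, had a peak in all 8 earlier lists and none at 24 h (adjusted p = 0.00225). Dnajc4, a J-domain chaperone, was gone from 6 h on (adjusted p = 0.000264), although another peak lay 2.04 to 2.24 kb from its start. Rrad, a small GTPase, went from 1454 and 1507 bp to 0 with an adjusted p of 0.0413, and 0.21 without replicate 1 at 0 h.

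Gfap, the intermediate filament protein of astrocytes, was the 1 gene of 29 from non-blood tissues with a peak in the 4 lists. Its window held no peak at 0 h and 2 h, then 685 and 652 bp by 6 h, 881 and 713 by 12 h, and finally 1134 and 1104. It passed at an adjusted p of 0.00132, and 0.0174 at most with a list left out. H3K27ac was there at both times, with 1038 and 1550 bp at 0 h and 2316 and 2107 bp at 24 h. Mylpf, a muscle myosin light chain, and Tbc1d10b next to it also passed as longer (adjusted p of 0.0158 and 0.0105), each in 1 of the 4 leave-one-out fits. Both had values at 12 h close to those at 0 h. The 2 calls rest on 1 peak, which spanned the Tbc1d10b start in every list and reached into the Mylpf window at 2, 6 and 24 h. Over its whole domain Tbc1d10b did not pass, with a difference of 0.391, and with only higher-scoring peaks its window difference was -3.79.

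Of the shortened domains that kept their peak, Hif3a, a subunit of the hypoxia-inducible factors, changed most. Its domain (chr7:17055389-17061860) went from 6178 and 6472 bp at 0 h, through 5575 and 3977 at 12 h, to 1851 and 2065 at 24 h. The loss was on the side upstream of the annotated start, which lies inside the gene, from 5100 ± 115 to 872 ± 78 bp. The difference was -1.60 ± 0.16 (adjusted p = 0.00307, and 0.0299 at most with a list left out). Mlec, malectin of the endoplasmic reticulum, dropped from 7680 and 7929 bp to 5614 and 5612 bp by 2 h and 5349 and 5482 bp at 24 h (adjusted p = 0.00307). Mid1ip1, which promotes fatty acid synthesis, stayed between 6101 and 6709 bp up to 12 h and had 4405 and 4369 bp at 24 h (adjusted p = 0.00427). Vim, the intermediate filament vimentin, had 4178 and 4179 bp at 0 h and 2830 and 2980 bp at 24 h (adjusted p = 0.0391), but passed in 0 of the 4 leave-one-out fits, with adjusted p up to 0.192.

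Among the 30 erythroid transcription factors, 6 domains were longer and 7 shorter in both 24 h lists out of 21 (28.6% and 33.3%). Lmo2 passed as longer and Zfpm1 as shorter. Over all tested domains, 18.1% were longer and 22.8% shorter in both 24 h lists. Mafk, a small Maf factor, had 0 bp in its window up to 6 h and 908 and 598 bp at 24 h (adjusted p = 0.129). At 0 h a peak already lay 2.15 to 2.87 kb from its start, just outside the window. Stem and progenitor genes had 1 domain longer and 7 shorter in both out of 14, with a median of -0.0285, and Gfi1, a repressor of progenitors, was lost from 839 and 411 bp (adjusted p = 0.57). Erythropoietin signalling had 3 and 8 of 12 domains, with a median of -0.0818 and none that passed. Its longest domains at 0 h, Pim1 and Cish, had differences of -0.10 each. Immediate early and stress genes had 3 and 9 of 29 (10.3% and 31%) and cytosolic ribosomal proteins 6 and 23 of 77 (7.79% and 29.9%). Polycomb and related genes had 5 and 9 of 31 (16.1% and 29%). Cell cycle genes had 16 and 8 of 43 (37.2% and 18.6%). The counts were 10 and 3 of 28 (35.7% and 10.7%) for autophagy genes and 14 and 3 of 38 (36.8% and 7.89%) for histone genes. No domain of these 6 lists passed. The list of GATA1-repressed signalling genes, mostly of cytokine and immune signalling, had 6 and 5 of 19 (31.6% and 26.3%), with Il9r longer. Dok2, an adaptor that damps receptor signals, was lost from 2169 and 567 bp of its window (adjusted p = 0.339).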

How the data were processed

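Peaks of H3K4me3, H3K27ac and CTCF ChIP-seq from mouse G1ER cells were used, 22 lists in all. The authors aligned reads with Bowtie2 to mm10 and called peaks from uniquely mapped reads with MACS in each sample separately. The MACS version, control and threshold are not given in the sources used here. The deposited files give peak positions and a score, whose formula is not stated, and no read counts, so depth and counting intervals are unknown. Sample groups came from the labels.

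Protein-coding TSSs were taken from GENCODE M21 (for each gene, transcripts were ranked by APPRIS level, then by length, and the start of the top one was used). Covered length was compared with limma (3.58.1, R 4.3.3) on log2(bp + 200) over all 10 lists of a mark, 5 time points with 2 replicates, for features with a peak in at least 2 lists, adjusted over all features at 0.05. Scripts ran under Python 3.11.15. The fit was tested on simulated data. Presence needed 1 bp of overlap. Named genes were the 12 largest called window differences and the 8 largest called domain differences in each direction, the 10 longest gained and 10 longest lost promoters, called, gained or lost list members, and up to 2 of the longest members of lists with none. The members and lists were chosen with earlier results of these data known. Alternatives were another window, TSS set, pseudocount, minimum number of lists, scaling, score limit, overlap or merging distance, fewer lists, and a replicate block. Leaving out promoters with peaks, or domains, of 6 kb or longer was added after seeing the data. Upstream sequences came from RefSeq, which held no entry for Dmtn, Lmo2, Tpsab1, Tespa1 and Hoxc5.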

Additional observations from a re-analysis of the deposited data

How the results depend on the processing

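Counts of changed promoters moved with the choice of peaks, and those of window calls also with the lists fitted. Gained promoters numbered 20, and 30 with only higher-scoring peaks, 36 with equal numbers of top-scoring peaks and 38 to 45 with a list left out. Lost promoters numbered 54, and 268, 23 and 89 to 101 in the same order. Window calls were 7 longer and 20 shorter. A fit to the 4 lists alone gave 22 and 48, a window of 5 kb 39 and 38, equal numbers of top peaks 14 and 10, and leaving out a list 5 to 27 and 14 to 40. The fit to the 4 lists kept 21 of 27 window calls and 30 of 64 domain calls. A window of 1 kb gave 4 longer, every TSS of a gene 14 longer, and higher-scoring peaks 74 shorter. Domain calls were 36 longer and 28 shorter, against 17 and 60 with higher-scoring peaks and 19 to 34 and 14 to 40 with a list left out. Scaling by median peak length gave 53 shorter. H3K27ac calls were 84 and 64, 143 shorter in the fit to 4 lists, and 48 to 155 and 62 to 129 with a list left out. The cause was not tested.

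Correlations of same-numbered deviations between time points ran from -0.0896 to 0.116. The 3 among 2, 6 and 12 h lay between 0.102 and 0.116 and the other 7 below, so the numbers were not taken as pairs. With a replicate block, domain calls were 27 longer and 17 shorter and window calls 6 and 16, and 40 of 64 domain calls and 22 of 27 window calls were kept. The domains of Vim, Lin28b, Piwil4, Plekhg3, Sgsm3, Nme4, Bcl2l15 and Gpr160 and the windows of Mylpf and Tespa1 were among those that no longer passed.

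With only higher-scoring peaks, differences turned round at Tbc1d10b (-3.79), Fam78a (-4.73), Noct (-1.85), Plin2 (-4.30), Trim56 (-4.30), Rpia (-4.48), Gga2 (-2.21), Ranbp10 and Tsnaxip1 (-4.12), St3gal4 (-4.32), Sptb (-4.55), Gm16867 (-3.71), Nadk2 (-2.35), Pfkm (-3.31), Reep5 (-1.83), Pdzd8 (-2.45), Uap1 (1.89), Arl14ep (1.69), Sord (4.14), C77080 (4.09) and Resf1 (4.17). Peaks under the score limit counted as 0 bp there, so these turns do not show an opposite change in length. Nab2 turned to 1.99 with equal numbers of top peaks, Ruvbl2 to -0.01 with every TSS and 1500011B03Rik to 0.04 with a window of 5 kb.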
